A study of Mus musculus with 6 samples.

Results

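Plasmacytoid dendritic cells (pDCs) are immune cells of blood and tissues that detect viral and self nucleic acids with the endosomal receptors TLR7 and TLR9 and can release large amounts of type I interferon. Their identity rests on the E protein TCF4, a transcription factor that binds E-box sequences, together with SPIB, RUNX2 and IRF8. Conventional dendritic cells (cDCs), which are specialised in presenting antigen to T cells, instead carry ID2, an inhibitor of E proteins, and the factors BATF3 and ZBTB46. In the mouse, pDCs are recognised by the lectin Siglec-H and by the tetherin BST2, and the liver holds a resident population.

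Here pDCs were taken from droplet single-cell RNA libraries of sorted CD45-positive liver mononuclear cells. A barcode was a pDC when it had no T cell receptor (TCR) contig, at least 2 unique molecular identifiers (UMIs, counts of captured mRNA molecules) of Siglech, and none of Cd79a, Cd3d, Cd3e or Ncr1. The rule found 287 of 23860 barcodes. The first group was iNKT KO HFD+HDCA, made of Ja18-/- mice, which lack a TCR joining segment that invariant natural killer T (iNKT) cells need, fed a 60% high-fat diet (HFD) with 0.25% hyodeoxycholic acid (HDCA), a bile acid. The second, WT HFD+HDCA, was wild-type mice on the same diet, and the third, WT HFD, was wild-type mice on the high-fat diet alone. Feeding lasted 12 weeks in all 3 groups, so a high-fat diet was common to every library. Each group had 1 RNA library. The number, sex and age of the mice behind it are not given in the sources used here, and a normal diet was not analysed here. Part of the study text names a CD4 sort, but B cells chosen by Cd79a made up 8431 of the barcodes.

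The targeted segment, Traj18, had 0 UMIs in the whole iNKT KO HFD+HDCA library, against 160 in WT HFD+HDCA and 172 in WT HFD, and none in any pDC. The libraries held 7153, 10228 and 6479 barcodes with 46600746, 70776925 and 44332213 UMIs for iNKT KO HFD+HDCA, WT HFD+HDCA and WT HFD. Between 67 and 93 barcode sequences were shared by each pair of libraries, but no barcode was a pDC in more than 1 of them. Since each group had a single library, no test between groups was possible, and the differences between libraries below are given with 95% intervals that cover counting error only. These intervals treat every UMI as independent and hold neither the spread between mice nor that between cells.

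The pDC share of barcodes was nearly the same in the 3 libraries. It was 1.22% in iNKT KO HFD+HDCA (87 cells, exact Clopper-Pearson interval 0.975% to 1.5%), 1.21% in WT HFD+HDCA (124 cells, 1.01% to 1.44%) and 1.17% in WT HFD (76 cells, 0.925% to 1.47%). The share in iNKT KO HFD+HDCA was equal, at a ratio of 1, to that in WT HFD+HDCA (interval 0.754 to 1.33), and the share in WT HFD+HDCA was 1.03 times that in WT HFD (0.771 to 1.39). The libraries thus did not allow a difference in pDC share to be detected at this depth, and they held no count of pDCs per liver. The cells were deeply read. Their median was 11442 UMIs in iNKT KO HFD+HDCA, 10945 in WT HFD+HDCA and 12009 in WT HFD, against medians of 4243, 4410 and 4508 UMIs in the B cells of the same libraries. Few pDCs were dividing. At least 4 of 10 proliferation genes were detected in 0 of 87 cells of iNKT KO HFD+HDCA, which allows a share of up to 4.15% (the exact upper bound), in 2 of 124 cells in WT HFD+HDCA and in 2 of 76 in WT HFD.

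The name given to these cells was checked against 19 other pDC markers. A median of 17 of the 19 was detected per cell in every library, against 4 to 5 in cDCs and 3 in B cells. Siglech, which chose the cells, had a median of 30 UMIs per cell in iNKT KO HFD+HDCA, 26 in WT HFD+HDCA and 29 in WT HFD, far above the 2 UMIs the rule asks for. Just inside that limit, 3, 7 and 7 cells in the same order of libraries had 2 to 4 Siglech UMIs, with a median of 7, 14 and 8 Tcf4 UMIs. Just outside it, 4, 5 and 1 barcodes had exactly 1 Siglech UMI, with a median of 8, 9 and 0 Tcf4 UMIs. Bst2, Tcf4 and Irf8, the other defining markers, stood high in all libraries. Bst2 had 3704 UMIs per 1000000 UMIs of the pDCs (CPM) in iNKT KO HFD+HDCA, 4287 CPM in WT HFD+HDCA and 3597 CPM in WT HFD. Tcf4 had 2072, 2201 and 2205 CPM, and Irf8 had 2998, 3322 and 2880 CPM, in the same order.

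**Figure D1:**
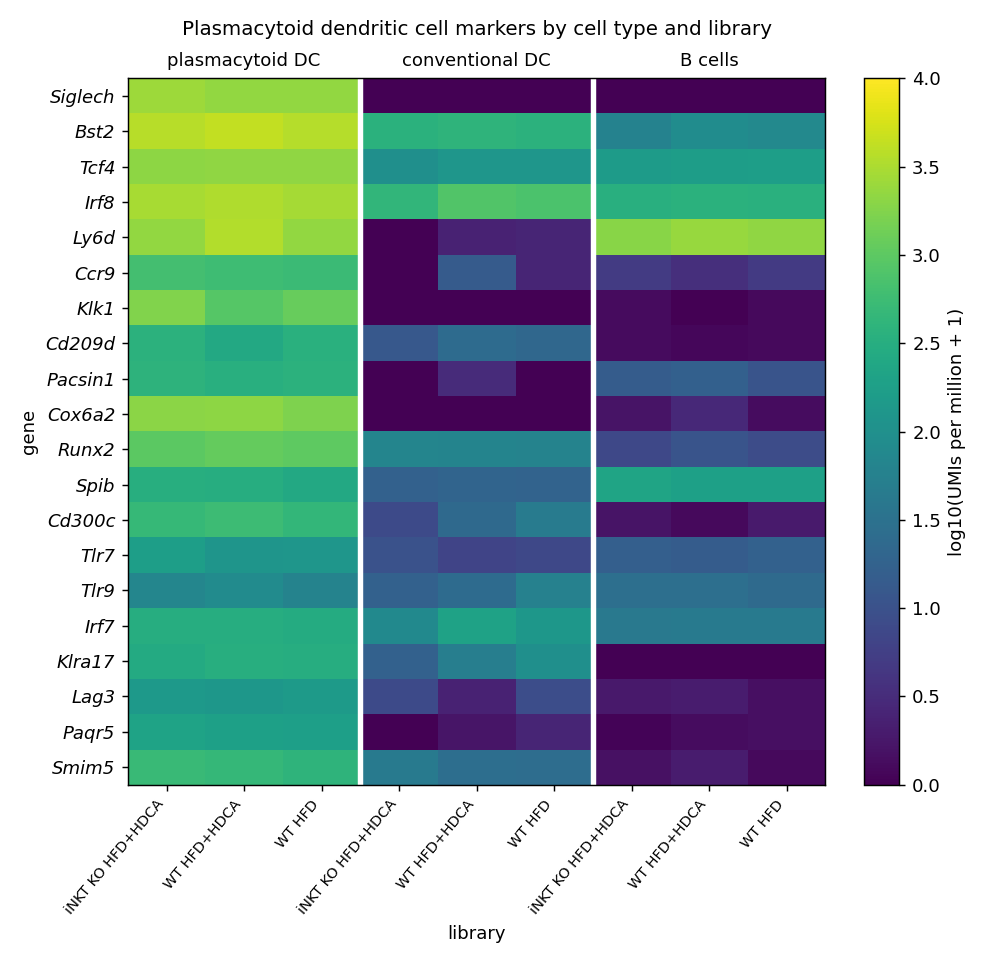
Level of the 20 pDC markers, as log10(CPM + 1), in pDCs, cDCs and B cells of the libraries iNKT KO HFD+HDCA, WT HFD+HDCA and WT HFD. Siglech is at 0 in cDCs and B cells by the rules that chose them, and Klk1 and Cox6a2 had no UMI in the cDCs of any library.

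Transcripts that mark other cells were summed in the pDCs, with cDCs and B cells as the only cell types measured beside them. Markers of cDCs and of B cells were lower in the pDCs than in the cells they mark. The 18 cDC markers gave the largest sum, 2490 CPM in iNKT KO HFD+HDCA, 2202 CPM in WT HFD+HDCA and 2865 CPM in WT HFD, against 12808, 12314 and 12888 CPM in cDCs. These markers include Flt3, Zbtb46, Xcr1, Clec9a and Cd209a, by which the cDCs were chosen, so the cDC sum is partly set by that choice. The 9 endothelial markers summed to 336, 302 and 279 CPM in pDCs, above the 53.6, 46.4 and 25.5 CPM of cDCs and the 162, 177 and 176 CPM of B cells, and they include Cdh5, at 156, 120 and 94.0 CPM in pDCs. The 18 monocyte markers summed to 1252 CPM in iNKT KO HFD+HDCA, 1097 CPM in WT HFD+HDCA and 1333 CPM in WT HFD, against 8282, 8482 and 5973 CPM in cDCs. Of the 14 Kupffer cell markers, 3, 5 and 3 were detected, with Clec4f, Vsig4, C1qa and Timd4 at 0. The 15 B cell markers summed to 1078, 979 and 812 CPM, against 12803, 12447 and 12392 CPM in B cells, and Fcer2a and Vpreb3 were at 0. Igkc, the immunoglobulin kappa constant gene, was seen in 37.9% of the pDCs in iNKT KO HFD+HDCA, 24.2% in WT HFD+HDCA and 15.8% in WT HFD. Its level was 230, 158 and 156 CPM in pDCs of the 3 libraries, against 0, 2.77 and 1.59 CPM in cDCs and 2295, 2068 and 1813 CPM in B cells. T cell markers summed to 732, 724 and 643 CPM, largely from Il7r, Cd4 and Cd8b1, while Trac gave 0, 1 and 0 UMIs. That sum was above the 53.6, 31.2 and 22.3 CPM of cDCs and the 47.3, 46.4 and 33.6 CPM of B cells. Lyz2, a lysozyme gene of monocytes and macrophages, reached 195 CPM in iNKT KO HFD+HDCA, 9.32 CPM in WT HFD+HDCA and 264 CPM in WT HFD, and was seen in 9.20%, 7.26% and 6.58% of the cells. Single cells set much of this spread, since 1 cell held 97 of the 188 Lyz2 UMIs of iNKT KO HFD+HDCA and 1 cell 199 of the 244 of WT HFD.

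A small set of the chosen cells stood apart. Cells with under 10 of the 19 markers numbered 2 in iNKT KO HFD+HDCA, 3 in WT HFD+HDCA and 10 in WT HFD. Genes outside that marker list were compared between these 15 cells and the other 272, as UMIs summed over the cells. Plbd1, a phospholipase B-like gene of myeloid cells, had 1066 CPM in the 15 cells, against 53.5 CPM in the rest, and was seen in 7 of 15 cells against 45 of 272. Vim, which encodes the filament protein vimentin, had 2433 CPM against 749 CPM, and Zbtb46 had 85.8 CPM (7 cells) against 8.01 CPM (15 cells). Id2 had 355 CPM against 17.3 CPM, but its 58 UMIs came from 3 of the 15 cells, with 56 in 1 cell of WT HFD. Other genes compared were lower in the 15 cells, among them Lyz2 (42.9 CPM against 140 CPM) and Cd8a (30.6 CPM against 102 CPM). The antigen presentation genes Cd74 (3211 CPM against 8136 CPM) and H2-Aa (1066 CPM against 2262 CPM) were lower too. Ms4a4c was nearly equal, at 18.4 CPM against 17.6 CPM. Tcf4, itself a marker, was seen in all 15 cells, at 1685 CPM against 2190 CPM. Because 10 of the 15 cells came from WT HFD, the ratios and list medians between libraries were also computed without them.

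To describe what set pDCs apart, their summed counts were compared with those of the 165 cDCs (29 in iNKT KO HFD+HDCA, 94 in WT HFD+HDCA, 42 in WT HFD) and of the 8431 B cells in the same libraries, with edgeR's quasi-likelihood test and the library as a block. The 3 libraries served as replicates although they differ in diet and genotype, and p-values are Benjamini-Hochberg adjusted over all genes tested. Genes of the rules that chose the cells, among them H2-Ab1, Flt3, Zbtb46 and Siglech, were not called. Against cDCs, 1672 of 8424 genes were higher in pDCs (19.8%) and 1675 were lower (19.9%) at an adjusted p of 0.05, which is 39.7% of the genes tested. Against B cells, 3234 of 12040 were higher (26.9%) and 3425 lower (28.4%), or 55.3%. These shares are the background for the counts below. The cDCs chosen here also held cells with monocyte transcripts, since Csf1r was seen in 72.4%, 62.8% and 64.3% of them and Lyz2 in 79.3%, 85.1% and 78.6%. In this and the following comparisons a value after ± is the standard error of a log2 fold change.

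Several of the genes that separated pDCs most sharply from cDCs encode secreted, muscle-type or receptor proteins. Cox6a2, a subunit of cytochrome c oxidase otherwise known from heart and skeletal muscle, had 2052 CPM in iNKT KO HFD+HDCA, 2114 CPM in WT HFD+HDCA and 1669 CPM in WT HFD, and no UMI in cDCs. Against the 3 UMIs over the group that a count of 0 allows, this is at least 1642-fold higher in pDCs. Klk1, the tissue kallikrein protease, had 1724, 884 and 1170 CPM in the 3 libraries and was at least 1009-fold higher, and its close relative Klk1b27 had 167, 82.4 and 106 CPM and was at least 94.9-fold higher. Reads of these near-identical kallikreins may have been split between them in counting. Mctp2, a membrane protein with calcium-binding domains, was at least 682-fold higher, Grm8, a metabotropic glutamate receptor, at least 560-fold, and Or2m12, an odorant receptor, at least 253-fold. Each of these genes was high in all 3 libraries of pDCs and undetected in all 3 of cDCs.

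Genes shared with developing lymphocytes belonged to the same set. Ly6d, a surface protein of early B-lineage cells, had 2256, 3465 and 2252 CPM in pDCs of iNKT KO HFD+HDCA, WT HFD+HDCA and WT HFD, against 0, 1.39 and 1.59 CPM in cDCs (log2 fold change 10.96 ± 0.17, adjusted p 6.19e-14). B cells held it at a like level, 1930, 2371 and 2164 CPM, and the difference from them did not pass the test (0.15, adjusted p 0.0837). Dntt, the DNA polymerase that adds bases at antigen receptor joints, had 131, 137 and 146 CPM and was at least 115-fold higher than in cDCs. The list of 12 was completed by Cdh5, the endothelial cadherin (at least 103-fold), Tbxa2r, the thromboxane A2 receptor (83.0-fold), Pgam2, a muscle phosphoglycerate mutase (76.4-fold), and Atp1b1, a subunit of the sodium pump (log2 fold change 9.34 ± 0.26). Against B cells, the inhibitory lectin Klra17, also called Ly49Q, was at least 4298-fold higher, the receptor phosphatase Ptprf at least 728-fold and E-cadherin, Cdh1, at least 703-fold.

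On the other side, the genes furthest below cDCs or B cells were at or near 0 in pDCs. Batf3, a factor that cDCs of the type 1 lineage need, had 0, 0 and 4.32 CPM in pDCs of iNKT KO HFD+HDCA, WT HFD+HDCA and WT HFD, against 177, 243 and 182 CPM in cDCs (-7.41 ± 0.39, adjusted p 5.84e-09). F13a1, coagulation factor XIII of monocytes, had 1.04, 0 and 3.24 CPM against 196, 244 and 132 CPM (-7.35 ± 0.37, adjusted p 3.43e-09). The cDC factor Zfp366 was at least 74.0-fold lower in pDCs, the protease Adam8 at least 71.3-fold and the lectin Clec4b1 at least 56.0-fold. Against B cells, the IgE receptor Fcer2a was at least 589-fold lower and Vpreb3, a surrogate light chain relative, at least 271-fold. Ms4a1, which encodes CD20, gave 1.04, 0 and 0 CPM in pDCs, against 890, 836 and 830 CPM in B cells (-11.49).

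Sequences just upstream of pDC genes were set beside these levels, because the E protein TCF4 prefers the E-box CAGGTG. The RefSeq promoter windows of GRCm38.p6, from 250 bases before to 50 bases after each gene's start, were searched for these letters on both strands. The motif was found in 6640 of 32851 windows (20.2%). It was present in 8 of the 14 windows of pDC markers (57.1%), namely Bst2, Ccr9, Cd300c, Irf8, Klk1, Paqr5, Siglech and Tlr9. Among the 12 genes highest over cDCs, 8 had a window and 5 of these held it, and among the 12 lowest 10 had a window and 0 held it. The 5 include the close relatives Klk1 and Klk1b27, and Klk1 is also among the markers, so these counts are not independent. Over the whole test the shares lay closer, at 22.5% of 1287 genes higher in pDCs and 18.1% of 1334 genes lower, against 19.3% of the 6756 tested genes that had a window. The 4 windows below belong to genes described here, each 300 bases long and written 5′ to 3′ along the gene, with the E-box or its reverse complement CACCTG in capitals. They are Siglech at chr7:55767934-55768233 (plus strand, motif at -20 from the start), Klk1 at chr7:44225110-44225409 (plus, -87), Mctp2 at chr7:72306546-72306845 (minus, -150) and Ccr9 at chr9:123766961-123767260 (plus, -85). A match is a description of letters, not evidence of binding.
Siglech: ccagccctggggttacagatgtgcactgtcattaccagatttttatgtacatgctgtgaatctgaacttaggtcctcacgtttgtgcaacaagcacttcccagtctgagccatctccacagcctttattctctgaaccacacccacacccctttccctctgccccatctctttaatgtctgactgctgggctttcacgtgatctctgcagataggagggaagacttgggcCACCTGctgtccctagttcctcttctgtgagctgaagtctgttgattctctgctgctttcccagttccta
Klk1: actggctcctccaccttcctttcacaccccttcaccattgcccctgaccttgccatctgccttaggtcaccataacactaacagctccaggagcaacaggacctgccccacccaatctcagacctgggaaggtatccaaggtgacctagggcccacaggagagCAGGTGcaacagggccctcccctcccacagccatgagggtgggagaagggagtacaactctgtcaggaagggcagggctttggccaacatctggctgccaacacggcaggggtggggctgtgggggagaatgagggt
Mctp2: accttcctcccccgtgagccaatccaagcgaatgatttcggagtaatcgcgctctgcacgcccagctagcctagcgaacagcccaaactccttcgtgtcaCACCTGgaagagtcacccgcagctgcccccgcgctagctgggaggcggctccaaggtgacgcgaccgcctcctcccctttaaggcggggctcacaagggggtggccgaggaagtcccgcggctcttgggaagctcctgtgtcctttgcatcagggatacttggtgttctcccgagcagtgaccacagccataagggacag
Ccr9: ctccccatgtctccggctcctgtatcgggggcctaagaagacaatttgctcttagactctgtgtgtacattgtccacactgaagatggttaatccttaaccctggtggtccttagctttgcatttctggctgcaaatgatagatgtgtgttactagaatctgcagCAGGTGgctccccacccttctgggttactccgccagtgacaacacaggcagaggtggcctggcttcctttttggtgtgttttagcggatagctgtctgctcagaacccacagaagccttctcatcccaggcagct

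Transcription factors on a list drawn up for pDCs were high as a group. Of 22 factors tested of a list of 24, 15 were higher than in cDCs and 6 were lower, with a median log2 fold change of 1.13, against 0.03 over all genes. Tcf4 was higher than in cDCs by 4.03 ± 0.09 (adjusted p 1.16e-12) and than in B cells by 3.58, with 95.5, 127 and 128 CPM in cDCs and 157, 166 and 175 CPM in B cells of iNKT KO HFD+HDCA, WT HFD+HDCA and WT HFD. Runx2, which guides the exit of pDCs from bone marrow in mice, had 997, 1133 and 1034 CPM in pDCs, against 65.2, 62.3 and 60.6 CPM in cDCs and 6.46, 9.81 and 7.51 CPM in B cells (3.93 ± 0.11 and 6.92). Irf8, shared with cDCs, was higher by 2.07 ± 0.12, and Spib, shared with B cells, was 3.88 ± 0.17 over cDCs and 0.49 over B cells. Irf7, the main driver of interferon alpha transcription, was 0.95 ± 0.18 over cDCs (adjusted p 0.000683) and 2.75 over B cells. Ets1, a factor of lymphocytes, was intermediate, 4.58 over cDCs and -2.85 against B cells. Spi1, which encodes PU.1, was lower than in cDCs (-2.41), as were Runx1 (-0.83) and Etv6 (-0.68). The list also held the cDC factor Zfp366, which had 0 UMIs in pDCs and was at least 74.0-fold lower than in cDCs. Many members of this list and of the identity list below are known pDC genes, so their counts are no independent evidence for the name of the cells.

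The factors of cDCs showed the opposite order. Of 11 tested of a list of 12, 10 were lower in pDCs and 1, Mycl, a MYC family factor, was higher (1.42), with a list median of -1.74. Id2 had 19.7 CPM in iNKT KO HFD+HDCA, 15.1 CPM in WT HFD+HDCA and 77.8 CPM in WT HFD and was far below cDCs (-4.43 ± 0.29). The WT HFD value is the highest, but 1 cell with few pDC markers held 56 of its 72 UMIs. Id3, another E protein inhibitor, had 56.1, 135 and 100 CPM and was below cDCs (-1.74), and Relb, an NF-kB subunit of antigen-presenting cells, was below them too (-2.31).

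Surface receptors and proteases that mark pDCs were higher than in cDCs almost without exception. In the list of 40 identity genes, 39 were higher than in cDCs and 35 were higher than in B cells, with 0 and 3 lower and medians of 4.21 and 5.64. The exception against cDCs was the adhesion molecule Cadm1 (-0.51, adjusted p 0.366). Ccr9, the receptor for the gut chemokine CCL25, had 647 CPM in iNKT KO HFD+HDCA, 571 CPM in WT HFD+HDCA and 534 CPM in WT HFD (6.04 ± 0.29 over cDCs). The lysosomal protease Ctsl was 6.08 over cDCs and 6.98 over B cells, and the activating receptor Cd300c was 4.15 and 9.65. Of the adaptors, Blnk, which relays B cell receptor signals, was 5.41 over cDCs and did not differ past the test from B cells (-0.01, adjusted p 0.884). Tyrobp, the signalling partner of Siglec-H, had 6047, 5884 and 5564 CPM and was 1.18 over cDCs and 5.05 over B cells. Receptors that dampen or tune pDCs were split, with 11 of 25 tested higher and 11 lower than in cDCs (list of 28, median -0.03). Lag3, a checkpoint receptor, was 4.86 over cDCs and the collagen receptor Lair1 4.55, while the checkpoint genes Havcr2 (-2.80) and Cd274 (-1.61) were lower.

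The machinery that senses nucleic acids was present, but not uniformly higher than in cDCs. Of 31 sensing genes tested of 34, 11 were higher than in cDCs and 12 lower (median -0.14), and of 32 tested against B cells 18 were higher and 8 lower (0.41). Tlr7, the receptor for single-stranded RNA, had 171 CPM in iNKT KO HFD+HDCA, 120 CPM in WT HFD+HDCA and 127 CPM in WT HFD, and was 4.16 ± 0.24 over cDCs (adjusted p 1.13e-08) and 3.06 over B cells. Tlr9, the receptor for CpG DNA, had 68.6, 84.6 and 61.6 CPM and was 1.08 ± 0.29 over cDCs (adjusted p 0.00925) and 1.33 over B cells. Tlr12, which in mice recognises profilin, was 2.08 over cDCs. Their chaperone Unc93b1 was 0.72 over cDCs, the transporter Slc15a4 0.85 and its partner Tasl, which leads to IRF5, 1.40. Pld4, an exonuclease of endosomal nucleic acids, had 1408, 1256 and 1221 CPM and was 1.32 over cDCs and 3.21 over B cells. Sensors of other compartments and ligands lay below cDCs, with Tlr3 at -4.61, Tlr2 at -2.50, the cytosolic RNA sensor Ifih1 at -1.73 and the DNA sensor Zbp1 at -2.24. Myd88, the adaptor of TLR7 and TLR9, was -0.81 against cDCs and 1.21 against B cells.

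Interferon transcripts themselves were all but absent. Over 20 interferon genes, the pDCs held 0 UMIs in iNKT KO HFD+HDCA, 3 in WT HFD+HDCA and 0 in WT HFD, and all 3 came from Ifnk, interferon kappa. No UMI of an interferon alpha gene or of Ifnb1 was seen, which allows a level of up to 3.12, 2.15 and 3.24 CPM for a gene at 0. Il6 and Il12b, cytokines of activated dendritic cells, were at 0 too. Among response genes that interferon induces, 7 of 34 tested were higher than in cDCs and 17 lower (list of 40, median -0.61), and they were split against B cells, with 15 of 39 higher and 13 lower (0.05). For the receptor, Ifnar1 had 174, 142 and 120 CPM (0.62 over cDCs) and Ifnar2 446, 469 and 449 CPM (0.99 over cDCs). Of 6 chemokine ligand genes tested of 14, 1 was higher than in cDCs and 4 were lower (median -4.83). Of 8 tested against B cells, 2 were higher and 4 lower (-1.26). Ccl4, a chemokine for T and NK cells, was the chemokine that stood out, with 618 CPM in iNKT KO HFD+HDCA, 339 CPM in WT HFD+HDCA and 451 CPM in WT HFD (2.13 ± 0.15 over cDCs).

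Genes of antigen presentation were lower in pDCs than in cDCs. All 17 genes tested, of a list of 20 for MHC class II and costimulation, were lower than in cDCs (median -2.03), and 16 of 19 were lower than in B cells (-2.21). Cd74, the invariant chain, had 8177, 7608 and 8022 CPM in pDCs of iNKT KO HFD+HDCA, WT HFD+HDCA and WT HFD, against 27714, 26594 and 26427 CPM in cDCs (-1.92 ± 0.03, adjusted p 1.1e-13). H2-Aa, an MHC class II chain, had 2331, 2116 and 2200 CPM, against 10336, 9665 and 8862 CPM in cDCs (-2.28 ± 0.05). For both genes the summed level of pDCs was below that of cDCs in every library, and levels of single pDCs and cDCs were not compared. The class II transactivator Ciita (-3.03) and the costimulatory genes Cd86 (-2.99), Cd80 (-5.89) and Cd40 (-3.90) were lower as well. The selection of cDCs by H2-Ab1, a gene of the same pathway, bears on the size of these differences.

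Genes of the secretory pathway stood higher than in both other cell types. Of 34, 22 were higher than in cDCs and 3 lower (median 0.58), and 28 were higher than in B cells and 4 lower (0.79). Xbp1, a regulator of endoplasmic reticulum expansion, was 1.27 over cDCs and 1.79 over B cells. The Sec61b translocon subunit was 0.59 and 1.74, and the chaperone Hsp90b1, which folds Toll-like receptors, 1.13 in both comparisons. Mzb1, a chaperone of antibody-secreting cells, had 232 CPM in iNKT KO HFD+HDCA, 159 CPM in WT HFD+HDCA and 97.2 CPM in WT HFD, against 4.66, 0 and 0 CPM in cDCs (7.23 ± 0.42) and 397, 497 and 413 CPM in B cells (-1.57).

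Genes of cholesterol synthesis and uptake were also higher, more so against B cells. Of 24 tested of 26, 16 were higher than in cDCs and 1 was lower (median 0.88), and 24 of 25 were higher than in B cells and 0 lower (2.58). Hmgcs1, which makes the HMG-CoA that feeds the pathway, had 203, 264 and 127 CPM in pDCs of iNKT KO HFD+HDCA, WT HFD+HDCA and WT HFD, against 72.2, 139 and 76.5 CPM in cDCs (0.85 ± 0.15, adjusted p 0.000451) and 21.9, 21.4 and 18.2 CPM in B cells (3.15). Fdps, which makes farnesyl diphosphate, was 1.17 and 3.67, and Dhcr7, which makes cholesterol from its last precursor, 1.94 and 2.58. Glycolytic genes were lower than in cDCs, 12 of 16 against 1 higher (median -0.89). Of 33 genes of oxidative phosphorylation, 30 were higher than in B cells and 1 lower (0.38), against 1 higher and 5 lower than in cDCs (-0.10).

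Receptors for growth factors and homing signals were a mixture of lymphoid and myeloid genes. Of 24 growth factor receptor genes tested of 28, 10 were higher than in cDCs and 11 lower (median 0.14). Il7r, the interleukin 7 receptor of lymphocytes, had 229, 219 and 209 CPM in iNKT KO HFD+HDCA, WT HFD+HDCA and WT HFD (3.83 over cDCs). Csf2rb2, the beta chain of the interleukin 3 receptor, was 3.01 and the leukaemia inhibitory factor receptor Lifr 3.79 over cDCs, while Csf1r (-3.94) and the interferon gamma receptor Ifngr1 (-3.02) were lower. Of 19 trafficking genes tested of 25, 8 were higher and 10 lower (-0.56). The chemokine receptor Cxcr3 was 2.68 over cDCs, against -4.04 for Ccr7, which guides dendritic cells to lymph nodes, and -1.85 for Ccr2. Inducible genes were lower than in cDCs, 16 of 22 immediate early genes (4 higher, median -1.61) and 10 of 16 genes of NF-kB feedback (0 higher, -1.05).

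**Figure D2:**
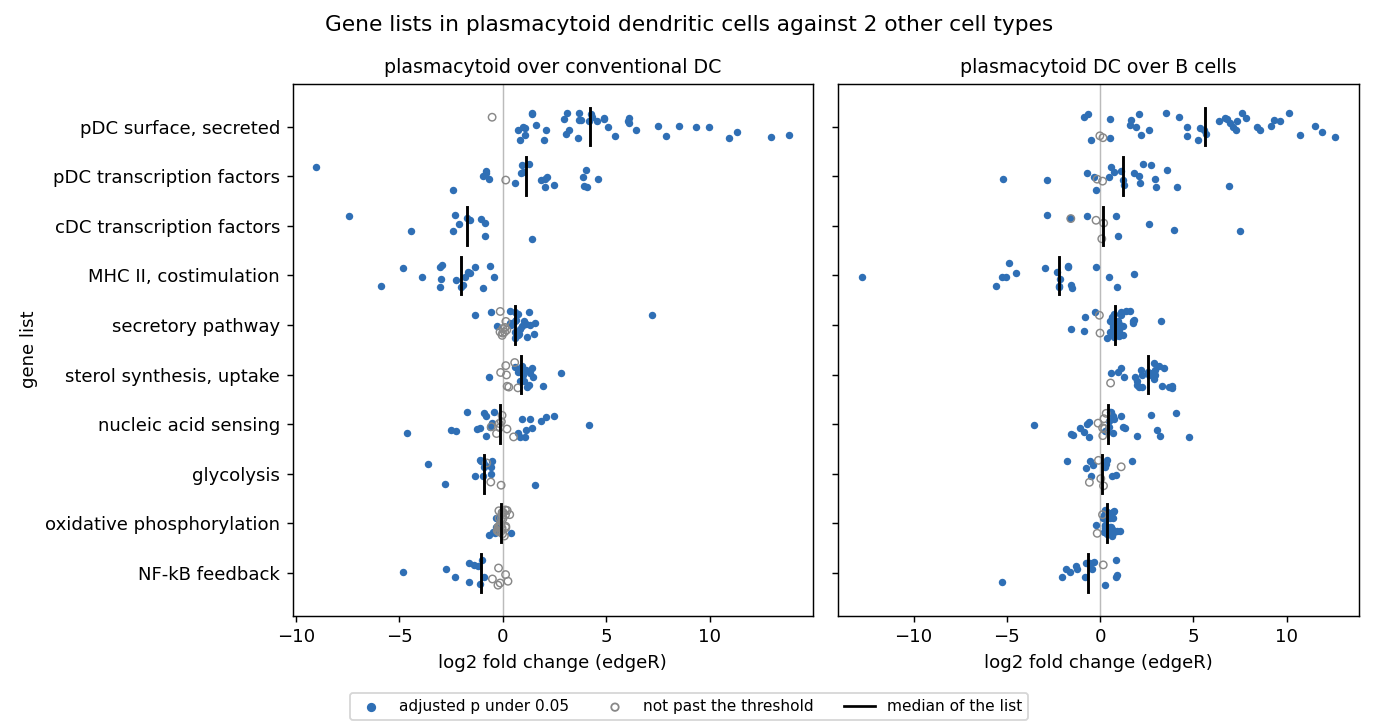
Log2 fold change from edgeR of each tested gene of 10 lists, pDCs over cDCs on the left and pDCs over B cells on the right, with filled points for genes at an adjusted p under 0.05 and black bars at list medians. Of the plotted lists, that of identity genes has the highest median in both comparisons (4.21 and 5.64), and the list of MHC class II and costimulation the lowest (-2.03 and -2.21).

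The next question was what the bile acid in the diet and the lack of iNKT cells went with in pDCs. Both comparisons use the WT HFD+HDCA library, so they are not independent, and a gene that is high or low there by itself moves them in opposite directions. Over genes with at least 50 UMIs, 205 of 6317 were at least 1.5-fold higher in iNKT KO HFD+HDCA than in WT HFD+HDCA (3.25%) and 291 were as much lower (4.61%), or 7.85% in all. In WT HFD+HDCA over WT HFD, 254 of 6318 were at least 1.5-fold higher (4.02%) and 245 lower (3.88%), or 7.9%. For gene lists, which took genes with at least 20 UMIs, the background was 5.92% higher and 8.67% lower in iNKT KO HFD+HDCA over WT HFD+HDCA, and 7.85% higher and 7.42% lower in WT HFD+HDCA over WT HFD. The median log2 ratio over all such genes was -0.02 and 0.02. None of these counts comes with a test. With every cell thinned to 2000 UMIs, 1458 genes of iNKT KO HFD+HDCA over WT HFD+HDCA and 1406 of WT HFD+HDCA over WT HFD still had 50 UMIs, and 147 and 146 of them were apart, of which 17 and 14 were among the genes counted above.

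Sterol genes were higher in WT HFD+HDCA than in WT HFD. Of 25 members with enough UMIs, of 26, 23 had the higher level in WT HFD+HDCA and 8 were at least 1.5-fold higher, with 0 as much lower and a median log2 ratio of 0.45. Hmgcs1, at 264 CPM in WT HFD+HDCA and 127 CPM in WT HFD, had a ratio of 2.07 (interval 1.68 to 2.57), and it was seen in 70.2% and 52.6% of the cells. Msmo1, a methylsterol oxidase, had 214 CPM and 104 CPM (2.06, 1.63 to 2.62), and Dhcr7 had 100 CPM and 58.3 CPM (1.72). Summed per cell, the list had a median of 2301 CPM in WT HFD+HDCA and 1674 CPM in WT HFD. In iNKT KO HFD+HDCA the median was 2160 CPM, and against WT HFD+HDCA 10 of 25 genes were higher and 15 lower (median log2 ratio -0.08), with Hmgcs1 at a ratio of 0.768 (0.643 to 0.917). In cDCs, 21 of 23 genes were higher in WT HFD+HDCA than in WT HFD (median 0.87) and 0 of 22 were higher in iNKT KO HFD+HDCA than in WT HFD+HDCA (-0.88). In B cells the medians were 0.02 and -0.05.

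The sterol regulatory element TCACNCCAC, the core letters that SREBP factors bind, was found in 1.24% of all promoter windows on either strand and in 1 of 17 windows of the list, that of Hmgcs1. Its window is shown because the gene is the one described above. It lies at chr13:119690101-119690400 of GRCm38.p6 (RefSeq, plus strand), with the match at -137 from the start in capitals.
Hmgcs1: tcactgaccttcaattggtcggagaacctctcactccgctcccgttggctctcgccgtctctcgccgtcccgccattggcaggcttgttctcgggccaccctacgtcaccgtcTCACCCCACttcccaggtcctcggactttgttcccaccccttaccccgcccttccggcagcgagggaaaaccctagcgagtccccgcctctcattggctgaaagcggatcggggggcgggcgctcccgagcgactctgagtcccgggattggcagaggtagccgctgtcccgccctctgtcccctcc

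Interferon response genes were also on the higher side in WT HFD+HDCA. Of 28 members with enough UMIs, of 40, 21 were higher than in WT HFD and 9 were at least 1.5-fold higher, with 0 as much lower (median log2 ratio 0.26). Against the same library, iNKT KO HFD+HDCA had 23 of 28 lower and 5 higher, with 7 at least 1.5-fold lower and 1 higher (median -0.22, but -0.055 with cells thinned to 2000 UMIs). Isg15, a ubiquitin-like protein induced by interferon, had 63.4 CPM in iNKT KO HFD+HDCA, 81.7 CPM in WT HFD+HDCA and 37.8 CPM in WT HFD. The diet ratio, WT HFD+HDCA over WT HFD, was 2.16 (1.47 to 3.25), but 1 cell held 36% of the 114 UMIs of WT HFD+HDCA. Mx1, an antiviral GTPase, had 12.5, 38.7 and 19.4 CPM, a ratio of 0.322 (0.157 to 0.610) for iNKT KO HFD+HDCA over WT HFD+HDCA and of 1.99 (1.15 to 3.61) for WT HFD+HDCA over WT HFD. WT HFD+HDCA was thus the high library for both genes. In cDCs, 35 of 37 genes of the list were higher in WT HFD+HDCA than in WT HFD (median 0.72), and in B cells 19 were higher and 19 lower (0.00). For iNKT KO HFD+HDCA over WT HFD+HDCA, 35 of 37 were lower in cDCs (-0.57), and in B cells 19 were higher and 19 lower (-0.02).

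The interferon-stimulated element was searched as GAAA, any 2 bases and GAAA again on both strands and was found in 3.44% of all windows and in 17 of 29 windows of the list (58.6%). The window of Isg15 is shown as an example, with 3 overlapping matches in 1 run of capitals that begins at -78 from the start, at chr4:156200769-156201068 of GRCm38.p6 (RefSeq, minus strand, written along the gene).
Isg15: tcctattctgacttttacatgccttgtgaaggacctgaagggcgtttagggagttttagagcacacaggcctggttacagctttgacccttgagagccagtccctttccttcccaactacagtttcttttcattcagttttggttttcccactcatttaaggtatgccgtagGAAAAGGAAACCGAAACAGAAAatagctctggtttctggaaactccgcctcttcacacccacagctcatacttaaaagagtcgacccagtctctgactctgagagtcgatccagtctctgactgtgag

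Activation genes differed in iNKT KO HFD+HDCA in both directions. Of 16 genes of NF-kB feedback, 14 were lower than in WT HFD+HDCA and 2 higher, with 5 at least 1.5-fold lower and 0 as much higher (median log2 ratio -0.36, and -0.23 with cells thinned to 2000 UMIs). Nfkbie, an inhibitor that NF-kB induces, had 46.8 CPM in iNKT KO HFD+HDCA, 92.5 CPM in WT HFD+HDCA and 83.2 CPM in WT HFD (0.506, 0.352 to 0.715). Nfkbia, another such inhibitor, had 221, 323 and 258 CPM (0.686, 0.580 to 0.810). For both genes iNKT KO HFD+HDCA was the lowest library. The costimulatory Cd86 had 6.24, 28 and 15.1 CPM (0.223, 0.0772 to 0.531). Higher in iNKT KO HFD+HDCA were Ccl4 at a ratio of 1.82 (1.61 to 2.06) and Tnf, at 50.9, 10.0 and 35.7 CPM, at 5.08 (2.76 to 9.95), but 1 cell held 34.7% of the Tnf UMIs of iNKT KO HFD+HDCA. Of the list of 33 interferon and cytokine genes only 5 had enough UMIs, 4 higher and 1 lower, and its sum per cell had a median of 432 CPM in iNKT KO HFD+HDCA and 428 CPM in WT HFD+HDCA. Between WT HFD+HDCA and WT HFD, 11 of the 16 NF-kB genes were higher and 5 lower (0.20, but -0.17 with cells thinned to 2000 UMIs). In cDCs and B cells the NF-kB list had medians of 0.01 and -0.05 for iNKT KO HFD+HDCA over WT HFD+HDCA.

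Immediate early genes, which respond to stimulation and also to tissue handling, were for the most part lower in WT HFD+HDCA than in WT HFD. Of 21 with enough UMIs, 15 were lower there than in WT HFD and 7 were at least 1.5-fold lower, against 1 as much higher (median -0.26), and 12 of 20 were higher in iNKT KO HFD+HDCA than in WT HFD+HDCA (0.13). Summed per cell, where the most abundant members weigh most, the list showed no such order, with medians of 5514 CPM in iNKT KO HFD+HDCA, 6015 CPM in WT HFD+HDCA and 5917 CPM in WT HFD. Atf3, a stress-induced factor, had 26.0 CPM in iNKT KO HFD+HDCA, 7.17 CPM in WT HFD+HDCA and 24.9 CPM in WT HFD. Dusp1, a phosphatase of MAP kinases, had 109, 59.5 and 117 CPM. The heat shock chaperone Hspa1b had 64.4, 13.6 and 29.2 CPM and, in B cells, 113, 24.2 and 50.9 CPM. The list of heat shock genes did not follow it, with 4 of 13 higher and 9 lower in iNKT KO HFD+HDCA than in WT HFD+HDCA (median log2 ratio -0.31). The part that handling of the samples had in these levels was not tested.

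**Figure D3:**
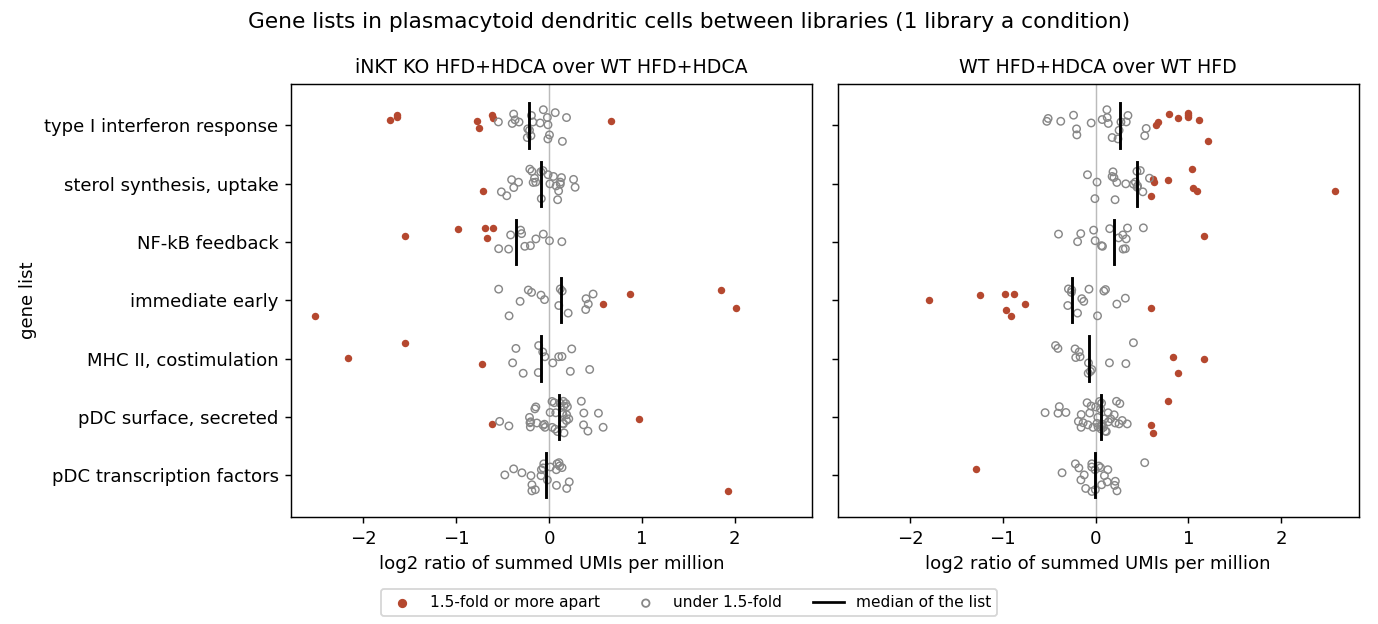
Log2 ratio of summed CPM in pDCs for each gene of 7 lists with at least 20 UMIs, iNKT KO HFD+HDCA over WT HFD+HDCA on the left and WT HFD+HDCA over WT HFD on the right, with filled points at 1.5-fold or more and black bars at list medians. Sterol genes have a median of 0.45 and interferon response genes of 0.26 on the right, and NF-kB genes of -0.36 on the left, and the 2 panels share the WT HFD+HDCA library.

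Identity genes were little different between libraries, with exceptions among surface and secreted proteins. In the list of 40, 27 were higher and 13 lower in each comparison, with medians of 0.10 for iNKT KO HFD+HDCA over WT HFD+HDCA and 0.06 for WT HFD+HDCA over WT HFD (-0.03 with the 272 cells of at least 10 markers). Klk1 was higher in iNKT KO HFD+HDCA than in WT HFD+HDCA (1.95, 1.81 to 2.10) and lower in WT HFD+HDCA than in WT HFD (0.755, 0.695 to 0.820), with medians of 12, 3.5 and 4 UMIs per cell. Ly6d ran the other way, at 0.651 (0.619 to 0.685) and 1.54 (1.46 to 1.62), with medians of 19, 31 and 22 UMIs. Lgals3, which encodes the lectin galectin 3, was singled out after its values were seen. It had 501 CPM in iNKT KO HFD+HDCA, 262 CPM in WT HFD+HDCA and 253 CPM in WT HFD, a ratio of 1.91 (1.66 to 2.19) for the knockout, and was detected in 82.8%, 26.6% and 34.2% of the pDCs. In B cells, read less deeply, it had 93.7, 72.1 and 55.0 CPM and was detected in 17.2%, 7.71% and 5.35%. The cDCs had 1446, 1422 and 1307 CPM.

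Among the 10 genes with the largest ratio in each direction, some knockout differences were also seen in cDCs or B cells. Rnase4, a secreted ribonuclease, had 57.2 CPM in iNKT KO HFD+HDCA, 8.60 CPM in WT HFD+HDCA and 7.56 CPM in WT HFD (6.65, 3.52 to 13.6). In cDCs it had 21.0, 2.77 and 1.59 CPM, from only 9, 4 and 1 UMIs. Mtmr9, a myotubularin-related protein, had 48.8 and 15.1 CPM in iNKT KO HFD+HDCA and WT HFD+HDCA (3.25). Duxbl1, a double homeobox gene, had 9.35, 48.7 and 50.8 CPM (0.192), and Rpgrip1, named for its binding to a retinal GTPase regulator, 74.8, 243 and 161 CPM (0.308). Duxbl1 had 0 UMIs in cDCs of every library and 1, 0 and 0 UMIs in B cells. Of the 20 genes named in this comparison, at least these 4 lie on chromosome 14, as do Traj18 and Lgals3. That chromosome held 3.35% of the compared genes for which a chromosome was known. Of all genes on that chromosome 8.65% were at least 1.5-fold apart, against 7.79% of the others, and whether flanking DNA of the knockout has a part in their levels was not tested. Tmem254, a membrane protein gene that was not matched to a chromosome here, had 73.8, 214 and 185 CPM in pDCs (0.345). In B cells it had 17.9, 47.6 and 42.5 CPM. Apoe, the apolipoprotein of macrophages and other cells, had 104 CPM and 40.9 CPM in iNKT KO HFD+HDCA and WT HFD+HDCA (2.54), a log2 ratio of 1.35 that was 0.22 without the cells that held Lyz2, Ms4a1, Trac or Nkg7. For Il1rapl1, an interleukin 1 receptor relative, the values were 54.0 CPM and 11.5 CPM (4.71).

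For the diet, the gene with the largest ratio was Ly6k, a small surface protein, with 62.4 CPM in WT HFD+HDCA and 14 CPM in WT HFD (4.44). It was seen in 12 and 2 cells, and iNKT KO HFD+HDCA had 8.31 CPM. B cells had Ly6k at 10.1 CPM in iNKT KO HFD+HDCA, 23.3 CPM in WT HFD+HDCA and 6.21 CPM in WT HFD. Terf1, a telomere binding protein, had 43.7 CPM and 14 CPM in WT HFD+HDCA and WT HFD (3.11, a direction that turned when every cell was thinned to 2000 UMIs), Lynx1, a modulator of nicotinic receptors, 57.3 CPM and 22.7 CPM (2.53), and Got1, an aspartate aminotransferase, 32.3 CPM and 13 CPM (2.49). Lower in WT HFD+HDCA than in WT HFD were Arhgap6, a GTPase-activating protein (15.8 CPM and 51.9 CPM, 0.304), Sdc1, the syndecan of plasma cells (15.1 CPM and 36.7 CPM, 0.410), and Plbd1 (78.1 CPM and 190 CPM, 0.411, 0.320 to 0.525). Plbd1 was high in the 15 cells with few pDC markers, and without them its direction turned, to a log2 ratio of 0.54 (-1.28 with them), an alternative chosen after seeing the data. At a total of 50 or more UMIs, most of these genes rest on few molecules per cell. The bile acid receptors were nearly silent in pDCs, with Gpbar1 at 0, 0 and 1.08 CPM and Nr1h4 at 0, 1.43 and 3.24 CPM in iNKT KO HFD+HDCA, WT HFD+HDCA and WT HFD.

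Within a library the chosen cells were not uniform. All 287 entered here, including the 15 with few pDC markers, and values without those 15 were not computed. In the 15, Vim (2433 against 749 CPM in the rest), Crip1 (2654 against 846 CPM) and Lgals3 (1109 against 289 CPM) were higher. Klk1 (6.13 against 1274 CPM) and Ly6d (441 against 2890 CPM), which are among the markers that set these cells apart, were lower. Among 1678 genes with an average of at least 1 UMI per cell, the squared coefficient of variation beyond counting noise had a median of 0.0395. In the library where it was least variable, it reached 2.64 for Cd8b1, a CD8 chain, 2.29 for Ccl4, 2.22 for Vim, 2.01 for Crip1, a LIM domain protein, 1.8 for Lgals3, 1.15 for Hmgcs1 and 1.14 for Klk1. Vim and Crip1 were high in the same cells (Spearman correlation 0.45, 0.54 and 0.52 over 87, 124 and 76 cells of iNKT KO HFD+HDCA, WT HFD+HDCA and WT HFD), and Vim ran against Klk1 (-0.44, -0.42 and -0.33). Klk1 went with H2-Ab1, an MHC class II chain (0.51, 0.55 and 0.43), and Lgals3 against Ly6d (-0.42, -0.40 and -0.42). Hmgcs1 went with Msmo1 (0.59, 0.54 and 0.41) and with Fdft1, squalene synthase (0.52, 0.56 and 0.40). The pairs given here were picked from all pairs of the most variable genes, as among the strongest with the same sign in every library. The pair of Msmo1 and Fdft1 was compared too and was not among the strongest. Cells of 1 library share its preparation and its depth, so these values are descriptions of the libraries.

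**Figure D4:**
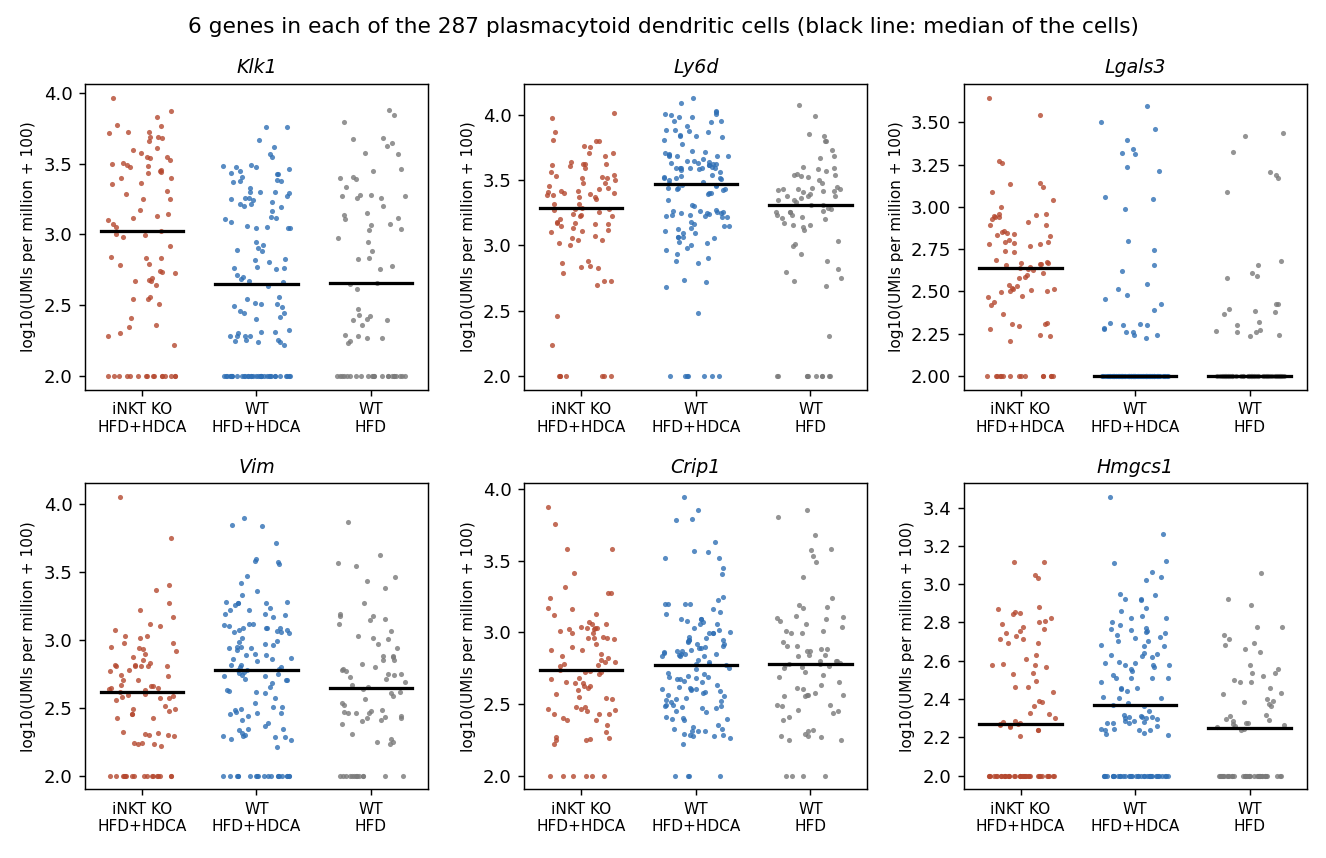
Level of 6 genes in each of the 287 pDCs, as log10(CPM + 100), by library, with a black line at the median of the cells. Lgals3 has a median of 3 UMIs in iNKT KO HFD+HDCA and 0 in both other libraries, and Ly6d has its highest median, 31 UMIs, in WT HFD+HDCA.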

How the data were processed

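RNA files held deposited counts of UMIs per gene (33696) and barcode, made with Cell Ranger 8.0.1 per the file headers, and 10x 3′ kits are named. The submitters' processing notes name both mm10 and GRCm39. TCR files held the authors' deposited contig counts, used only to exclude barcodes. Other deposited fields were names. Some items are not reported here.

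Members and all 23 gene lists and 13 marker lists were chosen with earlier results of these data known. cDCs needed H2-Ab1 at 5 or more UMIs and at least 2 of Flt3, Zbtb46, Xcr1, Clec9a and Cd209a, with no Siglech, Cd79a, Cd3d, Cd3e, Ncr1 or TCR contig. B cells needed Cd79a at 2 or more UMIs, with no Siglech, Cd3d, Cd3e, Ncr1 or TCR contig. No quality filter was set. Counts were summed per library and cell type.

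Cell types were compared with edgeR 4.0.16 (quasi-likelihood, TMM, filterByExpr, R 4.3.3) after a test on simulated data, with DESeq2 1.42.0 as an alternative. The 2 sums of a library come from the same mice, so the pairing by library entered as a block. Conditions were compared as CPM ratios with conditional exact intervals (scipy 1.17.1). Scanpy 1.11.5 ran Scrublet, and 4, 2 and 2 called doublets stayed among the pDCs of iNKT KO HFD+HDCA, WT HFD+HDCA and WT HFD. Named genes were the 12 highest and lowest fold changes per cell type comparison, and the 10 highest and lowest ratios per condition comparison (50 UMIs, 1.5-fold, at least 5 cells, no cell above 25% of UMIs). Receptor segments, gene models, mitochondrial, ribosomal, sex-linked and rule genes were left out. List genes could also be named.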

Additional observations from a re-analysis of the deposited data

Results flagged for a closer look

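Siglech-positive barcodes outside the pDC rule also carried pDC genes. Of the 371 barcodes with at least 2 Siglech UMIs, the exclusions removed 84, and Cox6a2 or Ccr9 was detected in 31 of the 32 removed from iNKT KO HFD+HDCA, 31 of the 32 from WT HFD+HDCA and, for WT HFD, 19 of 20. These barcodes belong to no comparison above. They had medians of 29, 23.5 and 23.5 Siglech UMIs and of 13924, 14571.5 and 14046 UMIs in all, and 9, 21 and 12 were called doublets by Scrublet. The part of doublets in the others was not tested.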

How the results depend on the processing

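Of 60 recomputed list medians, 44 stayed close to the value reported, 14 moved and 2 turned direction. In WT HFD+HDCA over WT HFD, the medians of interferon response and sterol genes kept their direction in all alternatives run, between 0.18 and 0.35 and between 0.35 and 0.52. The NF-kB median there was 0.089 as a mean per cell, 0.073 with at least 10 markers and -0.17 after thinning to 2000 UMIs, and the identity median was -0.031 with at least 10 markers. In iNKT KO HFD+HDCA over WT HFD+HDCA, thinning gave -0.055 for interferon response, -0.041 for sterol and -0.23 for NF-kB genes, and the sterol median was -0.040 without doublets and low-quality cells and -0.045 with at least 10 markers. The cause of these shifts was not tested.

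The number of genes apart follows the UMIs asked for. For iNKT KO HFD+HDCA over WT HFD+HDCA it was 1269 (515 higher, 754 lower) at 20 UMIs, 165 (69 and 96) at 100 UMIs and 147 (69 and 78) after thinning, and for WT HFD+HDCA over WT HFD it was 1328 (683 and 645), 153 (85 and 68) and 146 (76 and 70). Of 319 recomputed ratios of named genes 306 stayed close, 6 moved and 7 turned. Those that turned with thinning were, as log2 ratios, Terf1 (-0.71), Rhbdd1 (-0.44), Lpcat3 (-0.12) and Coa6 (0.10) in WT HFD+HDCA over WT HFD, and Prdm15 (-0.78) and Iars2 (-0.040) in iNKT KO HFD+HDCA over WT HFD+HDCA. Plbd1 turned with at least 10 markers (0.54). The cells with at least 10 markers, and lists without the top cell of each gene, were alternatives chosen after seeing the data. As a share of barcodes without a TCR contig, pDCs were 1.8% in iNKT KO HFD+HDCA, 1.93% in WT HFD+HDCA and 1.98% in WT HFD.

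Against cDCs, DESeq2 called 1935 genes (908 higher, 1027 lower), and the cause of the lower count was not tested. Leaving out 1 library at a time gave 2594 to 3377 genes (1256 to 1635 higher, 1338 to 1742 lower) against cDCs and 5910 to 6144 (2866 to 2992, 3044 to 3152) against B cells. Without the pairing by library as a block, 3358 and 6703 genes were called, and the block ended no call of a named gene. All 430 recomputed values of named cell type genes kept their direction and call.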

Other observations

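Genes of transitional dendritic cells, which share features of pDCs and cDCs, were lower in pDCs than in cDCs in 15 of 16 tested members of a list of 19 (median log2 fold change -2.96 by edgeR), with 1 higher, and higher than in B cells in 11 of 17, with 5 lower (0.71). Clec9a, a receptor for dead cells best known from cDCs of the type 1 lineage and 1 of the genes that chose the cDCs here, had 188 CPM in pDCs of iNKT KO HFD+HDCA, 134 CPM in WT HFD+HDCA and 163 CPM in WT HFD, while Xcr1, another gene of that lineage, had 0, 0.717 and 8.64 CPM. Of lectins of the Cd209 family, whose near-identical members may share reads, Cd209d and Cd209a varied together between pDCs of each library (Spearman correlation 0.30, 0.32 and 0.55 over 87, 124 and 76 cells). Ighm, the immunoglobulin M constant gene, had 565, 619 and 522 CPM in pDCs.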
